A study of Mus musculus with 10 samples.

Results

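The CCN family is a small group of secreted matricellular proteins, and 5 of its genes were followed here through the lungs of young mice after an increase in pulmonary blood flow (IncPBF). The 5 genes were Wisp1, Wisp2, Ctgf, Cyr61 and Nov, found by symbol among the 54532 genes of the FPKM table of the series, and all 5 had 1 entry each. They were selected on the group difference measured in these same lungs, so their IncPBF and sham values are given as a description without a test. Lungs of wild-type mice were profiled by bulk RNA-sequencing at P14, with 5 lungs from IncPBF mice and 5 from sham mice. At P7 the pups of the IncPBF group had the abdominal aorta punctured through into the inferior vena cava with a fine needle of 11-0 suture thread, which leaves a fistula between both vessels. Sham pups had the laparotomy without the puncture. All mice shared the WT genotype, no transgene is named, and pups of both groups had the surgery under isoflurane anaesthesia. According to the methods the pups were C57/BL6 and could be male or female, and the labels give neither sex, litter nor batch. By the sex-linked genes described below, IncPBF lungs 2 to 5 read as female and the other lungs, with every sham lung, as male.

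CCN proteins carry an IGF-binding-protein-like module, a von Willebrand factor type C module, a thrombospondin type 1 module and, in most members, a cystine knot at the carboxyl end. They bind integrins, heparan sulfate proteoglycans and LRP receptors, and they modulate growth factors in the matrix rather than forming fibres themselves. Ctgf and Cyr61 are widely used readouts of the mechanosensitive coactivators YAP and TAZ and also respond to TGF-beta and serum, Wisp1 and Wisp2 are named for their induction by Wnt-1, and Nov often behaves opposite to Ctgf in mesenchymal cells. In the lung they are made mainly by mesenchymal and endothelial cells and are known from fibrosis and vascular remodelling.

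The 5 genes resemble each other in their coding sequences. Each holds, in the amino-terminal IGF-binding-protein-like module, a run of 48 coding bases that fits a fixed pattern with 5 cysteine codons. The proteins were searched for this pattern, which set the length of the run and the places of the cysteines. The run is shown here because it lets the members be compared in the module they share with the IGF-binding proteins. The bases are from GRCm38 with the GENCODE M21 annotation, on the coding strand, and the capitals mark the cysteine codons.

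Wisp1: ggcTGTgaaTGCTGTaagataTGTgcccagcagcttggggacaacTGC
Wisp2: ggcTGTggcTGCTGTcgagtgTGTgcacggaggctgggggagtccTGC
Ctgf: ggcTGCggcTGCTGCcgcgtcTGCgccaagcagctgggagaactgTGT
Cyr61: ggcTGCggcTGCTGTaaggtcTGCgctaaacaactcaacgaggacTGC
Nov: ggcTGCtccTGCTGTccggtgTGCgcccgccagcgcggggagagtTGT

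The Wisp1 stretch lies at chr15:66906545-66906592 on the plus strand, the Ctgf stretch at chr10:24595966-24596013 on the plus strand and the Nov stretch at chr15:54746265-54746312 on the plus strand. The Cyr61 stretch lies at chr3:145649307-145649354 on the minus strand. All 4 are in exon 2 of 5, and the Wisp2 stretch, at chr2:163825225-163825272 on the plus strand, is in exon 3 of 5. Translated from the annotated coding sequence, the proteins have 367 residues with 38 cysteines for Wisp1, 348 with 39 for Ctgf, 379 with 38 for Cyr61 and 354 with 40 for Nov. Wisp2 has 251 residues with 29 cysteines, since it lacks the cystine knot module. In global alignments Ctgf and Cyr61 were the closest pair with 52.0% identical residues, and Wisp1 and Wisp2 were the most distant with 39.9%.

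Lungs had 16103423 to 20318525 fragments on genes after IncPBF surgery and 18171494 to 19400575 after sham surgery, so 1 fragment on a gene of 1 kb was worth 0.0482 to 0.0580 FPKM. FPKM is the number of fragments per kilobase of gene length, scaled to library size, and it allows levels to be compared between genes. The library size implied by the deposited values was 1.02 to 1.07 times the fragments on genes in IncPBF lungs. In sham lungs it was 0.958 to 1.03 times. The size used for scaling thus differed from the fragments on genes, and how it was set is not given in the sources used here. Xist, the RNA that coats the silenced X chromosome, was high in IncPBF lungs 2 to 5 (52.4 to 66.5 FPKM) and nearly missing from IncPBF lung 1 (0.0144 FPKM) and from every sham lung (0.0770 FPKM or less), and the Y-linked Ddx3y showed the opposite pattern (18.6 FPKM in IncPBF lung 1). By these genes IncPBF lungs 2 to 5 read as female, and IncPBF lung 1 and every sham lung as male. Sex therefore ran with the groups except in IncPBF lung 1, and differences between the groups include differences of sex. The members, the calls per list and the neighbouring genes are also given with log2 Xist FPKM as a covariate. In that fit the group difference rests mainly on IncPBF lung 1. Lung markers were present in every lung, except that the club cell gene Scgb1a1 was only 128 FPKM in sham lung 5 against 4802 FPKM or more in the others. Genes with a mean of at least 0.5 FPKM (15388) were tested with limma on log2(FPKM + 0.1), and 2480 (16.1%) were upregulated and 2490 (16.2%) downregulated in the IncPBF group at a Benjamini-Hochberg adjusted p under 0.05. With an equal FPKM sum in every lung the same counts were 2920 and 1959. The median log2 fold change of all genes tested was 0.01. Cells of a type becoming fewer and cells carrying less RNA each cannot be told apart in bulk tissue.

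Wisp1 (ENSMUSG00000005124, chr15:66891320-66923201, plus strand), a secreted protein of the matrix of bone and fibroblasts, showed the clearest separation of the family. In IncPBF lungs 1 to 5 it was 19.8, 23.2, 21.1, 19.8 and 19.7 FPKM, and in sham lungs 1 to 5 it was 5.20, 6.93, 6.96, 7.21 and 6.37 FPKM. Every IncPBF lung was above every sham lung, which was also true of 12.0% of all genes tested. The means were 20.7 ± 1.50 and 6.53 ± 0.809 FPKM (SD, n = 5 per group), a ratio of 3.18 and a log2 fold change of 1.66 with a standard error of 0.09. Its level rested on 1904 to 2421 fragments per IncPBF lung and 519 to 767 per sham lung, far above the floor of 3 fragments. Among the genes tested, 84 (0.546%) had a larger log2 rise, a rank that uses the same difference as the selection and is no test. IncPBF lung 1, the lung without Xist, held 19.8 FPKM like lung 4, and with the Xist covariate the log2 difference was 1.59 with a standard error of 0.16.

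**Figure D1:**
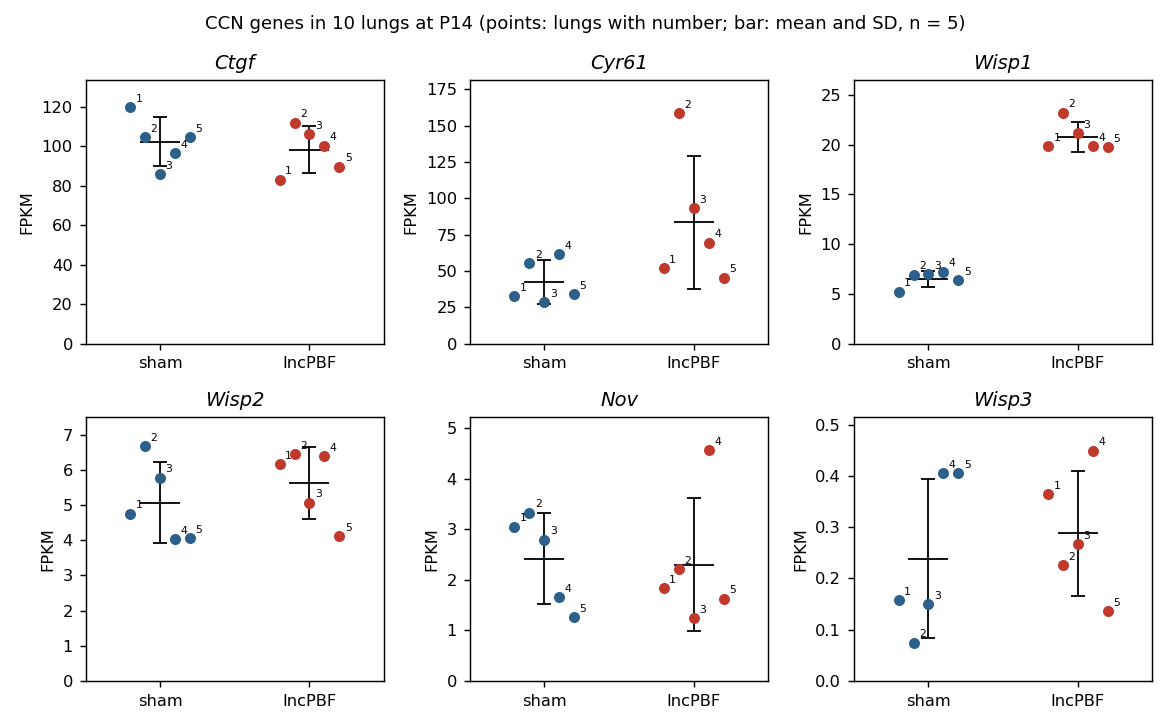
FPKM of the 5 CCN genes and of Wisp3 in each of the 10 lungs, by group, with lungs as numbered points and the mean with its SD as bars (n = 5), each panel having its own linear axis from 0. The IncPBF lungs lie above all sham lungs for Wisp1 (19.7 to 23.2 against 5.20 to 7.21 FPKM), while the groups overlap for every other gene shown.

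Cyr61 (ENSMUSG00000028195, chr3:145646976-145649981, minus strand), an angiogenic integrin ligand with the kinetics of an immediate early gene, was the most variable of the abundant members. It was 51.8, 159, 93.1, 69.6 and 45.2 FPKM in IncPBF lungs 1 to 5 and 32.8, 55.3, 28.4, 61.5 and 33.9 FPKM in sham lungs 1 to 5. Lungs 2, 3 and 4 of the IncPBF group were above all sham lungs, and lungs 1 and 5 were inside the sham range. The means were 83.6 ± 45.8 and 42.4 ± 14.9 FPKM, a ratio of 1.97 and a log2 fold change of 0.89 with a standard error of 0.33. Without IncPBF lung 2, the highest lung, the log2 difference was 0.63, and with the Xist covariate it was 0.37 with a standard error of 0.56. The difference between the means was smaller than the SD of the IncPBF group.

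Ctgf (ENSMUSG00000019997, chr10:24595442-24598683, plus strand), the profibrotic member induced by TGF-beta and YAP, had the highest level of the family in 9 of the 10 lungs. It was 83.0, 112, 106, 100.3 and 89.6 FPKM in IncPBF lungs 1 to 5 and 120, 104, 85.9, 96.5 and 104 FPKM in sham lungs 1 to 5. The groups overlapped almost wholly, with means of 98.2 ± 11.8 and 102 ± 12.4 FPKM and a log2 difference of -0.06 with a standard error of 0.10. The lowest lung of all was IncPBF lung 1, and with the Xist covariate the log2 difference was -0.27. An antisense transcript, Gm15270, overlaps Ctgf on the minus strand and reached at most 0.637 FPKM. Whether the counting used strand is not given in the sources used here.

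Wisp2 and Nov were low and did not separate the groups. Wisp2 (ENSMUSG00000027656, chr2:163820861-163833146, plus strand), the member without the cystine knot, was 6.16, 6.43, 5.06, 6.39 and 4.11 FPKM in the IncPBF lungs and 4.75, 6.68, 5.77, 4.02 and 4.06 FPKM in the sham lungs. Its means were 5.63 ± 1.02 and 5.06 ± 1.15 FPKM, with a log2 difference of 0.16 and a standard error of 0.16, and of 0.29 with the Xist covariate (standard error 0.29). Nov (ENSMUSG00000037362, chr15:54745702-54754039, plus strand), which shares chromosome 15 with Wisp1, was 1.84, 2.21, 1.25, 4.57 and 1.63 FPKM in the IncPBF lungs and 3.05, 3.33, 2.80, 1.66 and 1.26 FPKM in the sham lungs. IncPBF lung 4 held the highest Nov value of all 10 lungs, and the other 4 IncPBF lungs were inside or just below the sham range. The Nov means were 2.30 ± 1.31 and 2.42 ± 0.906 FPKM, with a log2 difference of -0.12 and a standard error of 0.34, and without IncPBF lung 4 the group difference was -0.40. The Xist covariate moved it to -0.30 with a standard error of 0.61. The remaining CCN gene, Wisp3, is no member of the selection and was below the filter, at 0.288 ± 0.122 and 0.238 ± 0.156 FPKM on 2 to 11 fragments per lung.

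The plot of the members under other settings shows which of these differences depended on a choice or on a lung. Wisp1 ran from 1.53 to 1.69 over the other settings and from 1.58 to 1.70 with each lung left out. Cyr61 ran from 0.63 to 1.08 with each lung left out. Wisp2 stayed between 0.09 and 0.27 and Ctgf between -0.12 and 0.00 over the same leave-outs, while Nov ran from -0.40 to 0.05.

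**Figure D2:**
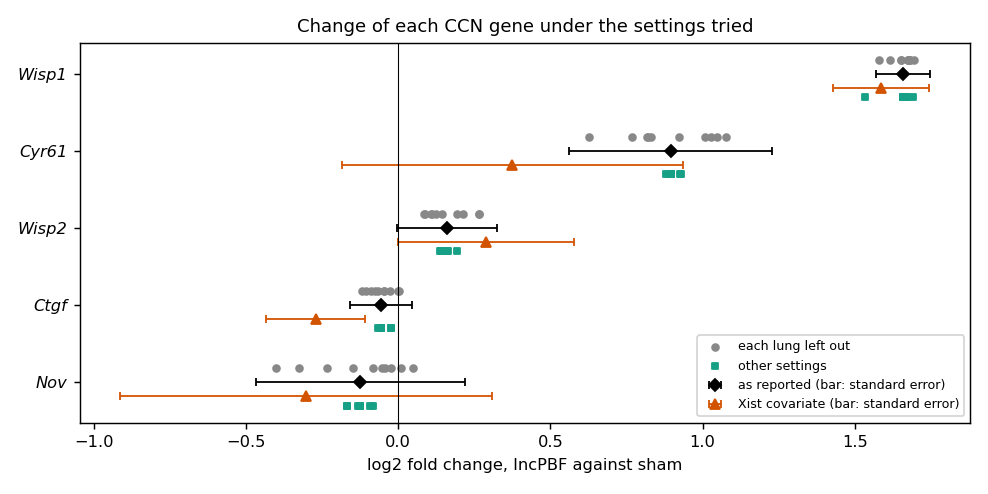
Log2 fold change of each CCN gene, IncPBF against sham, as reported (diamond, bar = standard error), with log2 Xist as a covariate (triangle, bar = standard error), with each lung left out (grey) and under the other settings (squares). Wisp1 stays at 1.53 or more throughout, whereas the Cyr61 value falls to 0.37 with the covariate and Nov crosses 0.

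By their means the members stood in the same order in both groups, from Ctgf over Cyr61, Wisp1 and Wisp2 to Nov, but the overlaps between neighbours differed. In the sham group Ctgf (85.9 to 120 FPKM) was above Cyr61 (28.4 to 61.5 FPKM) without overlap, Cyr61 was above Wisp1 without overlap, and Wisp1 (5.20 to 7.21 FPKM) and Wisp2 (4.02 to 6.68 FPKM) overlapped. In the IncPBF group Ctgf and Cyr61 overlapped, and Wisp1 (19.7 to 23.2 FPKM) was clear of Cyr61 above it and of Wisp2 below it. Wisp2 and Nov overlapped only in the IncPBF group. Per lung, the ratio of Wisp1 to Wisp2 FPKM was 3.11 to 4.81 after IncPBF and 1.04 to 1.79 after sham surgery. The ratio of Ctgf to Wisp1 was 4.19 to 5.06 against 12.3 to 23.0. As a share of the summed FPKM of the 6 CCN genes, Wisp1 was 10.3% ± 1.97 after IncPBF and 4.17% ± 0.796 after sham surgery, Ctgf 48.1% ± 7.01 and 64.6% ± 6.76, and Cyr61 37.6% ± 9.52 and 26.3% ± 6.95. These ratios use the same values as the selection and are descriptions.

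The receptors and binding partners of CCN proteins were more often lower than higher in the IncPBF group. Of 18 tested genes, 8 were downregulated (against 16.2% of all genes), 1 was upregulated (against 16.1%) and the median log2 fold change was -0.29, beside 0.01 over all genes. Lrp1, the endocytic receptor that binds Ctgf, was 29.3 ± 2.52 against 42.9 ± 8.87 FPKM (log2 fold change -0.53, adjusted p = 0.00881 from limma). Lrp6, a Wnt coreceptor, fell by 0.39 on the log2 scale (adjusted p = 0.00626 from limma), the laminin receptor chain Itga6 by 0.48 (adjusted p = 0.00228) and Notch1 by 0.49 (adjusted p = 0.0200). Itgav, the chain of the alpha-v integrins that Cyr61 and Ctgf engage, was the single gene that rose, by 0.21 (adjusted p = 0.0140 from limma). Its partner Itgb1, the most abundant of the list, was 352 FPKM in both groups. With the Xist covariate in limma 0 of the 18 passed, 3 had an unadjusted p under 0.05, and the median of the list was -0.28.

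Among transcription factors that act on CCN genes, 5 of 17 tested rose, against 16.1% of all genes, and 3 fell, a share near the 16.2% of all genes. The median was 0.05. Tead2, a DNA-binding partner of YAP and TAZ, was 16.2, 14.1, 18.5, 15.6 and 13.8 FPKM in the IncPBF lungs and 7.61, 9.66, 9.52, 10.3 and 9.72 FPKM in the sham lungs. The groups did not overlap (log2 fold change 0.73, adjusted p = 0.000297 from limma). Serum response factor, Srf, rose by 0.51 without overlap (adjusted p = 0.000113 from limma) and Smad3, which carries the TGF-beta signal, by 0.43 (adjusted p = 0.00134). Tead4 fell by 0.43 (adjusted p = 0.0146 from limma) and Smad4 by 0.21 (adjusted p = 0.0270). The coactivator Wwtr1 (TAZ) was at -0.16 (adjusted p = 0.173) and Yap1 at -0.04, neither past the threshold. Tead2 and Srf were the 2 that passed with the Xist covariate (adjusted p = 0.0344 and 0.0266 from limma). The count of 8 fell to 5 without IncPBF lung 1, 2 or 4 or sham lung 2 or 5.

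Other YAP/TAZ target genes fell more often than they rose. Of 20 tested, 3 rose, a share near the 16.1% of all genes, and 7 fell, against 16.2%, and the median was -0.09. The 3 were Tgfb2, Ankrd1 (5.11 ± 0.811 against 3.26 ± 0.233 FPKM, log2 fold change 0.62, adjusted p = 0.00115 from limma) and Foxf2 (0.58, adjusted p = 0.00117). Among those that fell were Igfbp3 (log2 fold change -1.50), Nt5e (-0.55), Ptpn14 (-0.42) and Amotl2 (-0.37), with adjusted p from limma of 2.43e-06, 0.00210, 0.00448 and 0.00323. Amotl2 is itself a YAP-binding inhibitor. With the Xist covariate 2 of the 20 passed, Tgfb2 upward and Igfbp3 downward.

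With all 10 lungs and no covariate, the TGF-beta list changed most often among the pathway lists. Of 15 tested, 8 rose (16.1% over all genes) and 4 fell (16.2%), with a median of 0.29. The ligand Tgfb2 was 30.6, 35.2, 32.1, 33.2 and 32.3 FPKM in the IncPBF lungs and 12.1, 14.9, 15.0, 14.9 and 15.5 FPKM in the sham lungs. The groups were far apart (log2 fold change 1.17, adjusted p = 3.05e-06 from limma). The ligand Tgfb3 rose by 1.11 (adjusted p = 8.99e-05), the induced matrix protein Tgfbi from 62.6 ± 25.4 to 232 ± 21.6 FPKM (1.97, adjusted p = 0.000110) and the latent-TGF-beta-binding protein Ltbp2 by 0.70 (adjusted p = 0.000499 from limma). The receptors went the other way, with Tgfbr3 at -1.12, Tgfbr2 at -0.34 and Tgfbr1 at -0.24 (adjusted p = 6.83e-05, 0.00742 and 0.0427 from limma), and so did the inhibitor Smad7 at -0.29 (adjusted p = 0.0215). Collagen I genes rose (Col1a1 by 0.35, adjusted p = 0.0392 from limma) while Col3a1 was at -0.10 (adjusted p = 0.332). With the Xist covariate Tgfb2, Tgfb3, Tgfbi and Tgfbr3 passed.

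**Figure D3:**
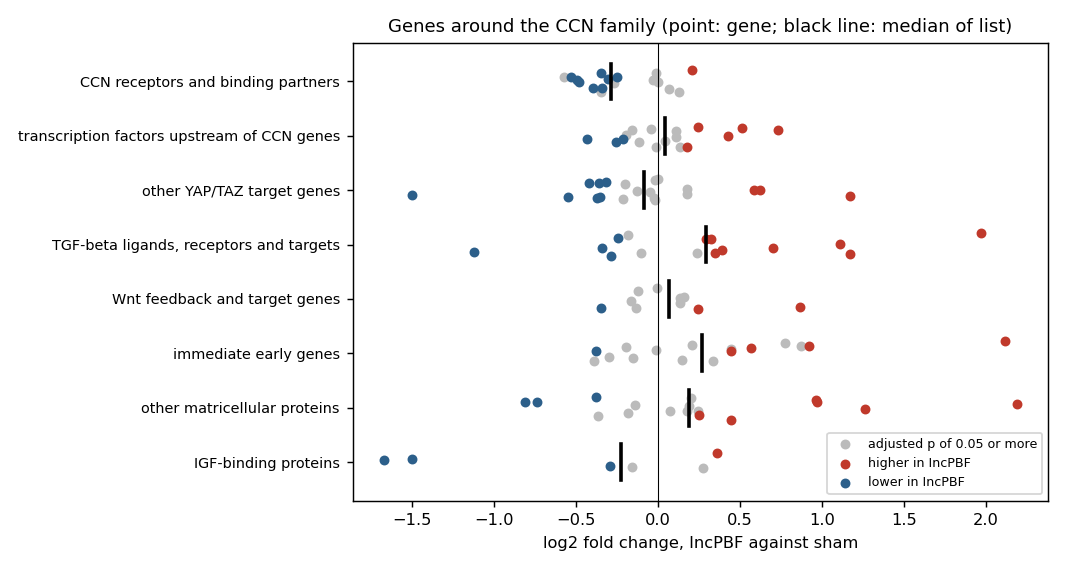
Log2 fold change, IncPBF against sham, of the tested genes of 8 lists around the CCN family, 1 point per gene, coloured where the limma adjusted p is under 0.05, with a black line at the median of each list. The CCN receptor list lies mostly below 0 (median -0.29) and the TGF-beta list mostly above (0.29), and the YAP/TAZ and Wnt lists centre near 0.

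Wnt feedback and target genes mostly did not pass the test. Of 10 tested, 2 rose and 1 fell, shares near the 16.1% and 16.2% of all genes, and the median was 0.06. Wif1, a secreted Wnt inhibitor, rose from 6.61 ± 1.06 to 12.0 ± 1.26 FPKM (log2 fold change 0.87, adjusted p = 0.000205 from limma) and passed with the Xist covariate. Tcf7 rose by 0.25 (adjusted p = 0.0405 from limma), and Nkd1, a feedback inhibitor, fell by 0.35 (adjusted p = 0.00273). Axin2, the usual readout of Wnt signalling, was at -0.12 and did not pass (adjusted p = 0.203 from limma).

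Immediate early genes, to which Cyr61 belongs by its kinetics, were uneven. Of 16 tested, 4 rose (16.1% over all genes) and 1 fell (16.2%), with a median of 0.27, and with the Xist covariate in limma 0 passed and 2 had an unadjusted p under 0.05. Nr4a1, a nuclear receptor, was 16.7, 63.1, 42.7, 31.3 and 10.05 FPKM in the IncPBF lungs and 5.10, 9.82, 4.71, 6.57 and 5.63 FPKM in the sham lungs. The IncPBF lungs stood in the order of their Cyr61 values (log2 fold change 2.12, adjusted p = 0.00360 from limma). Atf3 rose by 0.92 (adjusted p = 0.00266), Klf4 by 0.57 (adjusted p = 0.00965) and Ier2 by 0.44 (adjusted p = 0.0350 from limma), and Zfp36 fell by 0.38 (adjusted p = 0.0365). Summed over the list, the 5 IncPBF lungs were 576, 820, 708, 652 and 505 FPKM and the sham lungs 564, 700.2, 462, 556 and 572 FPKM. The IncPBF lung highest for this sum, lung 2, was also highest for Cyr61, and the part of these genes in the Cyr61 difference was not tested. The count of 5 was 3 without IncPBF lung 3 or 4 or sham lung 1, 4 or 5.

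Other matricellular proteins held some of the largest rises around the family. Of 17 tested, 6 rose, against 16.1% of all genes, and 3 fell, a share near the 16.2% of all genes, and the median was 0.19. Tenascin-C (Tnc), a matrix glycoprotein of remodelling tissue, was 85.4, 97.1, 114, 96.4 and 94.97 FPKM in the IncPBF lungs and 11.7, 19.2, 32.6, 24.6 and 24.1 FPKM in the sham lungs. No sham lung came near the IncPBF range (log2 fold change 2.19, adjusted p = 5.47e-05 from limma). Thrombospondin 1 (Thbs1), which activates latent TGF-beta, rose by 1.26 (adjusted p = 5.98e-05 from limma) and Thbs2 by 0.96 (adjusted p = 0.00222). Fbln7, counted among the 6, was 0.864 against 0.413 FPKM and passed the filter on low values only through the IncPBF group. Tnxb fell by 0.81 (adjusted p = 0.000117), Smoc2 by 0.74 (adjusted p = 0.00870) and Sparcl1 by 0.37 (adjusted p = 0.0210 from limma). Sparc, the most abundant at 1212 ± 43.1 against 1338 ± 132 FPKM, was at -0.14 and did not pass (adjusted p = 0.269). Tnc, Thbs1 and Tnxb passed with the Xist covariate.

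The IGF-binding proteins, relatives of the CCN amino-terminal module, changed in 4 of 6 cases. Among them 1 rose, a share near the 16.1% of all genes, and 3 fell, against 16.2%, with a median of -0.23. Igfbp6 was 18.05, 16.1, 14.9, 14.3 and 21.8 FPKM in the IncPBF lungs and 51.8, 64.5, 37.7, 47.3 and 74.9 FPKM in the sham lungs. All IncPBF lungs were below all sham lungs (log2 fold change -1.67, adjusted p = 7.34e-05 from limma), as in 11.2% of all genes tested. Igfbp3 fell from 31.6 ± 3.31 to 11.1 ± 1.02 FPKM and Igfbp7 by 0.29 (adjusted p = 0.0363 from limma), and Igfbp4 rose by 0.36 (adjusted p = 0.00202). Igfbp3 and Igfbp6 passed with the Xist covariate.

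Most smooth muscle and myofibroblast markers rose beside Wisp1, while fibroblast markers went both ways. Of 10 smooth muscle and myofibroblast markers, 6 rose (16.1% over all genes) and 1 fell (16.2%), with a median of 0.75, and Acta2 was at 313 ± 76.6 against 108 ± 36.0 FPKM (log2 fold change 1.57, adjusted p = 0.000783 from limma). The summed level of this list was 345 to 639 FPKM after IncPBF and 144 to 275 FPKM after sham surgery, without overlap. With the Xist covariate in limma 0 of the 10 passed, 2 had an unadjusted p under 0.05, and the median was 0.41. In IncPBF lungs 1 to 5 this sum was 345, 498, 538, 639 and 412 FPKM, beside Wisp1 values of 19.8, 23.2, 21.1, 19.8 and 19.7 FPKM. Of 12 fibroblast markers, 5 rose and 4 fell, beside the same 16.1% and 16.2%, with overlapping summed levels of 1431 to 1627 and 1413 to 1700 FPKM. Of 11 chondrocyte markers only 2 were expressed enough to test, and Col9a2, at 0.995 ± 0.301 against 0.152 ± 0.0835 FPKM, passed the filter on low values only through the IncPBF group, so that its call is no evidence of a change. The part of these cells in the Wisp1 difference was not tested.

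**Figure D4:**
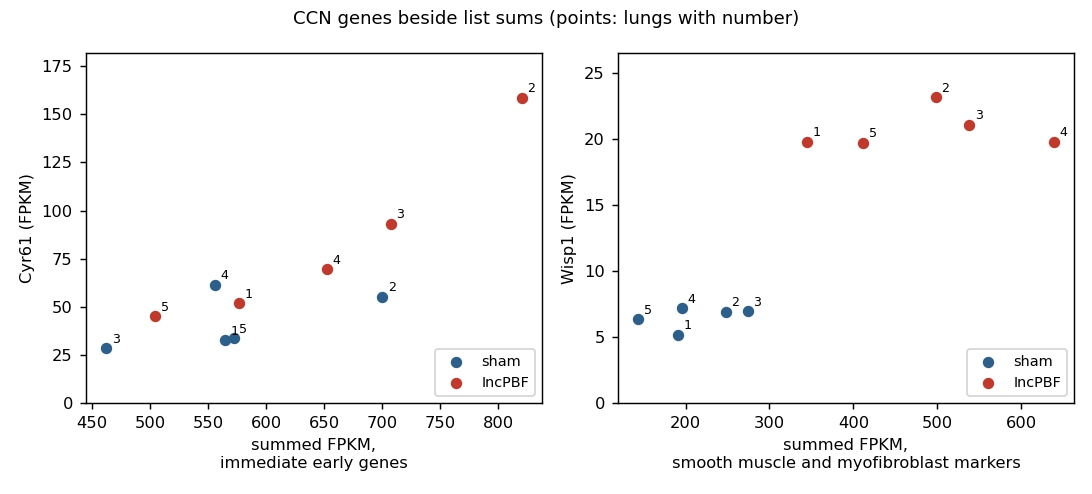
Left, Cyr61 FPKM of each lung against the summed FPKM of the immediate early genes, and right, Wisp1 FPKM against the summed FPKM of smooth muscle and myofibroblast markers, with lungs as numbered points. IncPBF lung 2 is highest on both axes on the left (159 and 820 FPKM), and on the right the IncPBF lungs are above all sham lungs on both axes (345 to 639 against 144 to 275 FPKM for the markers).

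Markers of other cell types fell or did not pass, apart from 1 lung tissue marker that rose. Over all genes 16.2% fell and 16.1% rose. All 5 tested mesothelial markers fell (median -0.88), with a summed level of 48.1 to 78.2 against 84.4 to 163 FPKM, and 3 of them passed without IncPBF lung 3 or 4 or sham lung 2 or 5. All 8 AT1 markers fell (median -0.43), with 5 passing without any 1 of IncPBF lungs 1 to 4 or of sham lungs 2, 4 and 5. Of the others, 6 of 9 endothelial and 5 of 9 AT2 markers fell and none rose. A fall was also found in 3 of 7 blood and platelet markers (1 without IncPBF lung 1) and 1 of 8 macrophage markers (0 to 3 as each lung was left out), the latter a share no higher than over all genes. None of 7 ciliated cell, 8 lymphocyte or 6 cardiac muscle markers passed in limma or with voom, with 1 gene of each list at an unadjusted p under 0.05 in limma, and of the 6 lung tissue markers 1 rose and 2 fell. With the Xist covariate these lists held 2 calls, the mesothelial Upk1b and the endothelial Vwf. The list medians with it were -0.73 for mesothelial and -0.34 for AT1 markers. For endothelial, AT2 and blood and platelet markers they were -0.30, -0.45 and -2.43, beside -0.29, -0.37 and -1.50 without it. The macrophage median was -0.04, beside -0.27 without it.

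The genes whose pattern over the 10 lungs was nearest to that of each member were taken by the root mean square distance between standardized log2 values. For Wisp1 they were Cdh11, a cadherin of mesenchymal cells (distance 0.0885), Tgfb2 (0.0914) and Rhobtb3 (0.116). Cdh11 was 50.1 to 56.0 FPKM after IncPBF and 22.5 to 27.4 FPKM after sham surgery, so nearness to Wisp1 largely means the same separation of the groups. For Cyr61 they were the early response genes Egr3 (0.297), Egr1 (0.313) and Plk2 (0.314), and after subtraction of the group means Plk2 (0.205), Fos (0.239) and Ier3 (0.307) were nearest. Egr3, at 0.681 against 0.338 FPKM, passed the filter on low values only through the IncPBF group. Plk2 was 42.3, 72.2, 62.2, 47.4 and 41.9 FPKM in the IncPBF lungs and 27.2, 35.2, 23.5, 36.8 and 27.3 FPKM in the sham lungs, with the lungs of each group in the order they had for Cyr61. Trib1 was nearest to Ctgf with (0.302) and without (0.392) this subtraction. Nearest to Wisp2 and Nov were Xlr4a (0.452) and Coa6 (0.482) over the lungs as measured. With group means subtracted they were Bag2 (0.332) and Plin4 (0.326), and Gm2670 (0.342) was then nearest to Wisp1. Gm2670, at 0.679 FPKM after IncPBF and 0.326 after sham surgery, passed the filter only through the IncPBF group. Plin4, at 0.219 and 0.824 FPKM, passed it only through the sham group. Between members, Wisp1 and Cyr61 were closest (0.778) and Wisp1 and Ctgf farthest (1.56), an order that includes the group difference used to select them. With group means subtracted Wisp2 and Nov were closest (0.763), Wisp1 and Cyr61 were at 0.874, and Wisp1 and Ctgf were again farthest (1.57).

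The nearest tested genes on either side of each member on the chromosome were read from the same fit. Ndrg1, 6.12 kb from Wisp1, was lower in every IncPBF lung (2.50 ± 0.267 against 3.34 ± 0.245 FPKM, log2 fold change -0.41, adjusted p = 0.00530 from limma), and Sla, 59.5 kb away on the other side, was at -0.36 (adjusted p = 0.186). Gm17501 starts 331 bases from Cyr61 on the opposite strand and was 3.21, 4.28, 4.75, 4.98 and 4.54 FPKM in the IncPBF lungs and 2.30, 2.57, 2.54, 2.38 and 1.75 FPKM in the sham lungs. Unlike Cyr61 it did not overlap between the groups (log2 fold change 0.88, adjusted p = 0.000676 from limma, and 0.46 with adjusted p = 0.167 with the Xist covariate). Znhit6, on the other side of Cyr61, rose by 0.60 (adjusted p = 0.00178 from limma), also without overlap of the groups. Beside Ctgf, Enpp1 rose by 0.94 (adjusted p = 0.000120) and Moxd1, low at 0.726 against 0.389 FPKM, did not pass (0.72, adjusted p = 0.0720 from limma). Beside Nov, Mal2 fell by 0.35 (adjusted p = 0.00761) and Enpp2, which makes lysophosphatidic acid, by 0.96 (adjusted p = 0.000229 from limma). Ada and Ywhab beside Wisp2 did not pass (adjusted p = 0.611 and 0.946 from limma). In the fit with Xist as a covariate Ndrg1 (-0.65, adjusted p = 0.0210), Enpp1 (0.97, 0.0227), Znhit6 (0.81, 0.0305) and Enpp2 (-1.01, 0.0319) passed in limma, and Mal2 (-0.35, 0.206) did not.

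Among the members only Cyr61, which has Gm17501 beside its start, had a promoter sequence in the source used. This promoter was searched for sites of factors known to act on CCN genes. The 250 bases before the start, from RefSeq on GRCm38.p6 (chr3:145649986-145650235, minus strand), are printed with the match to the TEAD motif in capitals.

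Cyr61 promoter: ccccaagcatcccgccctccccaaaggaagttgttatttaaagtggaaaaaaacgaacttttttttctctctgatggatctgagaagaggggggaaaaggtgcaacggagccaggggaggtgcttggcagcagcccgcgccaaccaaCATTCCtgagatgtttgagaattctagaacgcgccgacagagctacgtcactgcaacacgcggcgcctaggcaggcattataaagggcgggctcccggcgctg

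The TEAD motif GGAATG matched on the opposite strand at positions -103 to -98 from the start, and 12.6% of 32851 promoters of this length held a match on either strand. The AP-1 motif TGANTCA, the TCF/LEF motif CTTTGAT, the SMAD motif CAGAC and the CArG box of SRF had no match in this window, and were found in 6.75%, 3.21%, 42.2% and 1.47% of the promoters. A match is a stretch of letters and not evidence of binding, and the promoters of the other 4 members were missing from the source and were not analysed.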

How the data were processed

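The 10 lungs were grouped by their labels into IncPBF (fistula surgery) and sham, 5 each, and columns of the IncPBF lungs, which carry another abbreviation, were assigned to that group because the other 5 are named sham. RNA was isolated with Trizol (labels) or a column kit (methods) and sequenced from NEBNext Ultra libraries. The authors deposited 1 table of FPKM per gene with gene lengths. The submitters' processing notes name Bowtie 0.12.2 and the builds GRCm38, mm10 and hg38, and the counting software and test are not given in the sources used here. Positions of 53462 of 54409 genes shared with GENCODE M21 (98.3%) were identical on GRCm38. FPKM times gene length gave whole fragments for 100% of values (tolerance 0.1 fragment). Limits from fragments cover counting error only.

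Genes whose FPKM averaged 0.5 or more were fitted with limma 3.58.1 (lmFit, eBayes with trend) in R 4.3.3 on log2(FPKM + 0.1), all 10 lungs, without covariates, with Benjamini-Hochberg adjustment over the 15388 genes and a threshold of 0.05. The pseudocount lowers fold changes of low genes. P-values set the group difference against the spread between these lungs, which are taken as independent although their litters are not given. They do not separate surgery from sex. The members, the lists and the tests were chosen with earlier results of these data known. Genes named were the members and Wisp3, up to 4 largest rises and 4 largest falls past the threshold and the 2 most abundant genes of each pathway list, the 2 most abundant of each marker list, the 3 nearest in pattern, chromosomal neighbours, Xist and Ddx3y, of which examples are given. Axin2, Yap1 and Vwf lie outside this rule and were chosen after their values were seen. Sequences came from GENCODE M21 and RefSeq tables, read with Python 3.11.15, pandas 2.3.3 and Biopython 1.88, and figures were drawn with matplotlib 3.10.9.

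Alternatives were pseudocounts of 1 and 0.01, no filter or a mean FPKM of at least 1, an equal FPKM sum per lung, quantile normalization, a replicate block, log2 Xist FPKM as a covariate, voom on the recovered fragments, and each lung left out. The fit was tested on simulated data with few changed genes and no difference of sex between the groups, so that test does not check the calls made here.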

Additional observations from a re-analysis of the deposited data

Results flagged for a closer look

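The summed FPKM of the 6 lung tissue markers was 20766 in IncPBF lung 4, against 16567 to 17706 in the other 4 IncPBF lungs. The gap to the nearest lung was 0.729 of the range of the group, more than the limit for 5 samples, a limit that chance passes in about 1 of 20 groups. The same rule was applied to each of the 6 CCN genes and to every list sum in both groups, and no other value was flagged. Among so many groups, 1 flag can arise by chance. Scgb1a1, at 10003 FPKM in this lung and 4802 to 6627 FPKM in the others, is the gene of the list that stands apart there. IncPBF lung 4 also held the highest Nov value, 4.57 FPKM.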

How the results depend on the processing

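The direction of the log2 difference of Wisp1 and Cyr61 held under every alternative run. With log2 Xist FPKM as a covariate Ctgf moved from -0.06 to -0.27, and the genes called over all genes from 4970 to 741. The calls per list were then 0 for receptors, 2 for transcription factors, 2 for YAP/TAZ targets, 4 for TGF-beta, 1 for Wnt, 0 for immediate early, 3 for matricellular, 2 for IGF-binding, 2 for fibroblast, 0 for smooth muscle, 1 for mesothelial, 0 for chondrocyte, 1 for endothelial, and 0 for AT1, AT2, macrophage, blood and lung tissue genes. Sex-linked expression and surgery cannot be told apart in 4 of the 5 IncPBF lungs. Without a filter, with 54532 genes tested, 3125 genes were called, among them 5 receptors, 3 transcription factors, 7 TGF-beta, 2 immediate early, 3 fibroblast, 1 mesothelial, 3 endothelial, 3 AT1, 1 AT2, 0 macrophage, 0 blood and 1 lung tissue gene. With a filter at 1 FPKM, 0 chondrocyte genes were called. Voom called 8 immediate early and 2 macrophage genes. The replicate block called 8 immediate early, 1 ciliated and 1 lymphocyte gene, and 4872 in all, but equal numbers did not deviate together (correlations of -0.067 to 0.085, own number nearest in 2 of 5) and do not mark pairs. With each lung left out, the ranges were 5 to 7 for transcription factors, 5 to 8 for AT1, 3 to 6 for immediate early, 3 to 5 for mesothelial, 1 to 4 for blood, 0 to 3 for macrophage and 0 to 1 for lymphocyte, chondrocyte and ciliated genes. The cause of these moves was not tested. Depth limits Wisp3, with 2 to 11 fragments per lung.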
